A study of Mus musculus with 12 samples.

Results

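The 9 genes described here encode the Aurora kinases and their partners on the meiotic spindle, and were taken by name from the 24259 gene symbols of the deposited table: *Aurka*, *Aurkb*, *Aurkc*, *Tpx2*, *Plk1*, *Incenp*, *Birc5*, *Cdca8* and *Prc1*. All 9 were found, and all 9 passed the filter on low values in each comparison. Aurora A, switched on and brought to spindle microtubules by TPX2, helps an oocyte to build its spindle without centrioles, and PLK1 acts with it on spindle poles, kinetochores and the exit from prophase arrest. Aurora B and its germ-cell relative Aurora C work instead inside the chromosomal passenger complex, where INCENP is the scaffold that activates the kinase, and survivin (the product of *Birc5*) and borealin (the product of *Cdca8*) hold the complex on chromosomes. PRC1 bundles the antiparallel microtubules of the midzone, to which the passenger complex moves at anaphase. A GV-stage oocyte, whose nucleus (the germinal vesicle) is intact at prophase, stores such mRNAs and translates many of them only as meiosis resumes.

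The oocytes came from 3-week-old female mice, collected 46 h after 5 IU of pregnant mare serum gonadotropin (PMSG), which makes follicles grow. WT mice were compared with *Lsm14b*-KO mice, homozygous for Lsm14b tm1a(KOMP)Mbp, a reporter-tagged insertion carried in every cell of the animal, on a C57BL/6J background. LSM14B is an RNA-binding protein of oocyte ribonucleoprotein particles. Cycloheximide-treated lysates of about 1500 oocytes were separated on sucrose gradients, and fractions 1 to 10 (the RNP pool, free or ribosome-poor mRNA) and 11 to 28 (the polysome pool) were sequenced from 3 libraries of each genotype, 12 in all. Each lysate thus pooled many animals. The labels number the 3 libraries of a group and do not say whether they came from separate lysates, so a p-value here measures the spread between these libraries, which may be technical. Values are FPKM, fragment numbers divided by transcript length and by library depth, which are per length and so allow levels of different genes to be compared. They are also relative to each library, so that a difference between pools is not the share of an mRNA on ribosomes, and in pooled material fewer cells of a type and less RNA per cell cannot be told apart.

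The ends of the transcripts are shown because sequences near the poly(A) tail are known to govern when stored oocyte mRNAs are translated. The last 140 bases of each 3′ UTR in GENCODE M21 (GRCm38, the mm10 sequence), a window that fits inside the shortest one, were searched on the transcript strand for the cytoplasmic polyadenylation element (CPE, TTTTAT or TTTTAAT), to which CPEB proteins bind. It was present in this window in *Aurka*, *Aurkb* and *Aurkc* and in none of the other 6, while 22.5% of 18411 genes with such a window held it. Farther from the end, the whole 3′ UTR held 2 matches in *Tpx2* and 1 in *Prc1*. The sites in the window, 5′ to 3′ with the element in capitals, lay 53, 31 and 38 bases before the annotated transcript end.
*Aurka* CPE, chr2:172356238-172356265, minus strand: taaaggctattTTTTATgttggagttct
*Aurkb* CPE, chr11:69051617-69051644, plus strand: gaagaacaacaTTTTATaataaagtctt
*Aurkc* CPE, chr7:7003037-7003064, plus strand: cttgttttctcTTTTATgaagtgatgtt
In *Aurkb* the element ran directly into the polyadenylation signal, and the signal (AATAAA or ATTAAA) was found in the window of every member except *Aurka*, against 80.0% of all genes. The whole 3′ UTR of *Aurka* held 1 match to the signal, outside the window. For the 3 genes whose polysome level differed between KO and WT, the signal nearest to the transcript end is shown in capitals.
*Plk1* signal, chr7:122169844-122169871, plus strand: gctttatatatATTAAAatgtgtacatc
*Incenp* signal, chr19:9872345-9872372, minus strand: tgaggtagtttAATAAAgtgtatagccc
*Birc5* signal, chr11:117855699-117855726, plus strand: cggggtaacggAATAAAatcacttgaaa
The Pumilio-binding element TGTANATA lay in the window of *Incenp* alone among the 9 (5.74% of all genes), and the hexamer CCTCTC in none (4.39%). Outside the window, the hexamer occurred 1 time in the 3′ UTR of *Tpx2* and 1 time in that of *Birc5*. These matches describe letters only.

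In the deposited table *Aurka* lies at chr2:172356188-172370570, *Aurkb* at chr11:69045641-69051662, *Aurkc* at chr7:6995383-7003091 and *Tpx2* at chr2:152847962-152895321. *Plk1* lies at chr7:122159435-122169875, *Incenp* at chr19:9872295-9899533, *Birc5* at chr11:117849235-117855743, *Cdca8* at chr4:124918463-124936917 and *Prc1* at chr7:80294449-80316259. An annotated antisense gene overlaps *Plk1* (*Gm44985*), *Cdca8* (*9930104L06Rik*) and *Prc1* (*6330403N20Rik* and *Rccd1*), and since strand-specific counting is not stated, fragments of the partners cannot be told apart. *Incenp* overlaps *AC132253.8* and *Tpx2* contains *Mir5622*. *Aurkb* and *Aurkc* are paralogs, and how shared fragments were divided between them is uncertain.

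Low FPKM values rose in steps of whole fragments, from which each library held an estimated 4.85 to 7.81 M fragments (M, mega). *Lsm14b* was at 27.4 to 34.6 FPKM in WT RNP and 11.3 to 15.3 in WT polysomes, and at most 0.893 in the KO libraries, so each library matched its labelled genotype. All 10 oocyte markers were detected in every library, summing to 21700 to 26700 FPKM in polysomes and 6540 to 8380 in RNP, while the 6 theca and stroma markers summed to at most 2.58 FPKM and the 6 blood and immune markers to at most 8.71. The 12 granulosa and cumulus markers were low, with sums higher in the KO, of 95.5 to 118 FPKM in KO against 38.7 to 85.6 in WT polysomes and of 54.2 to 75.6 against 34.0 to 47.5 in RNP. Of these 12, 3 were at 0 in all KO polysome libraries and 2 in all WT ones, and 2 in all KO RNP libraries and 6 in all WT ones. They did not move together. In polysomes the KO mean was higher for 7 and lower for 3 (*Cyp19a1*, *Kitl* and *Wt1*), and limma called *Fshr*, *Inha* and *Inhba* higher and none lower among 8 tested. *Inha* was at 39.4 to 51.4 FPKM in KO and 0 to 9.58 in WT polysomes, while *Cyp19a1*, also abundant among the markers, was at 14.6 to 34.5 in KO and 19.0 to 62.0 in WT. Without *Inha* the polysome sums overlapped, at 45.3 to 78.1 FPKM in KO and 38.7 to 76.0 in WT. In RNP the KO mean was higher for 10 and lower for none, with *Inha* alone called among 5 tested, and the sums without it were 50.4 to 64.5 in KO and 33.7 to 47.5 in WT. Dividing granulosa cells also use the Aurora and PLK1 machinery, and the part of these cells in the differences below was not tested. In KO polysome replicate 2, *Mir300* alone was listed at 170809 FPKM, while the 9 genes summed to 3011 FPKM there, against 2943 and 2794 in the other KO polysome libraries.

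*Birc5* was by far the most abundant of the 9 mRNAs in every library. Its mean was 685 ± 22.9 FPKM in WT RNP, 1047 ± 15.7 in KO RNP, 1424 ± 121 in WT polysomes and 1857 ± 88.5 in KO polysomes (SD, n = 3). In KO polysomes it ranked 32 among all genes. Survivin mRNA made up 42.5% to 44.8% of the members' summed FPKM in WT RNP, 52.8% to 54.6% in KO RNP, 60.7% to 65.5% in WT polysomes and 63.1% to 64.4% in KO polysomes. In the RNP pool the order below *Birc5* was *Prc1*, *Aurka*, *Cdca8*, *Plk1*, *Aurkc*, *Incenp*, *Aurkb* and *Tpx2* in WT, and the ranges of *Prc1* and *Aurka* and of *Aurka* and *Cdca8* overlapped. In KO RNP *Plk1* came before *Cdca8*, and the ranges of *Aurkc* and *Incenp* overlapped. In the polysome pool the order was *Aurka*, *Prc1*, *Plk1*, *Cdca8*, *Incenp*, *Aurkc*, *Tpx2* and *Aurkb* in both genotypes. There the ranges of *Plk1* and *Cdca8* and of *Tpx2* and *Aurkb* overlapped in WT, and those of *Prc1* and *Plk1* in KO. Among the kinases, *Aurka* exceeded *Aurkc*, and *Aurkc* exceeded *Aurkb*, in each of the 12 libraries.

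**Figure D1:**
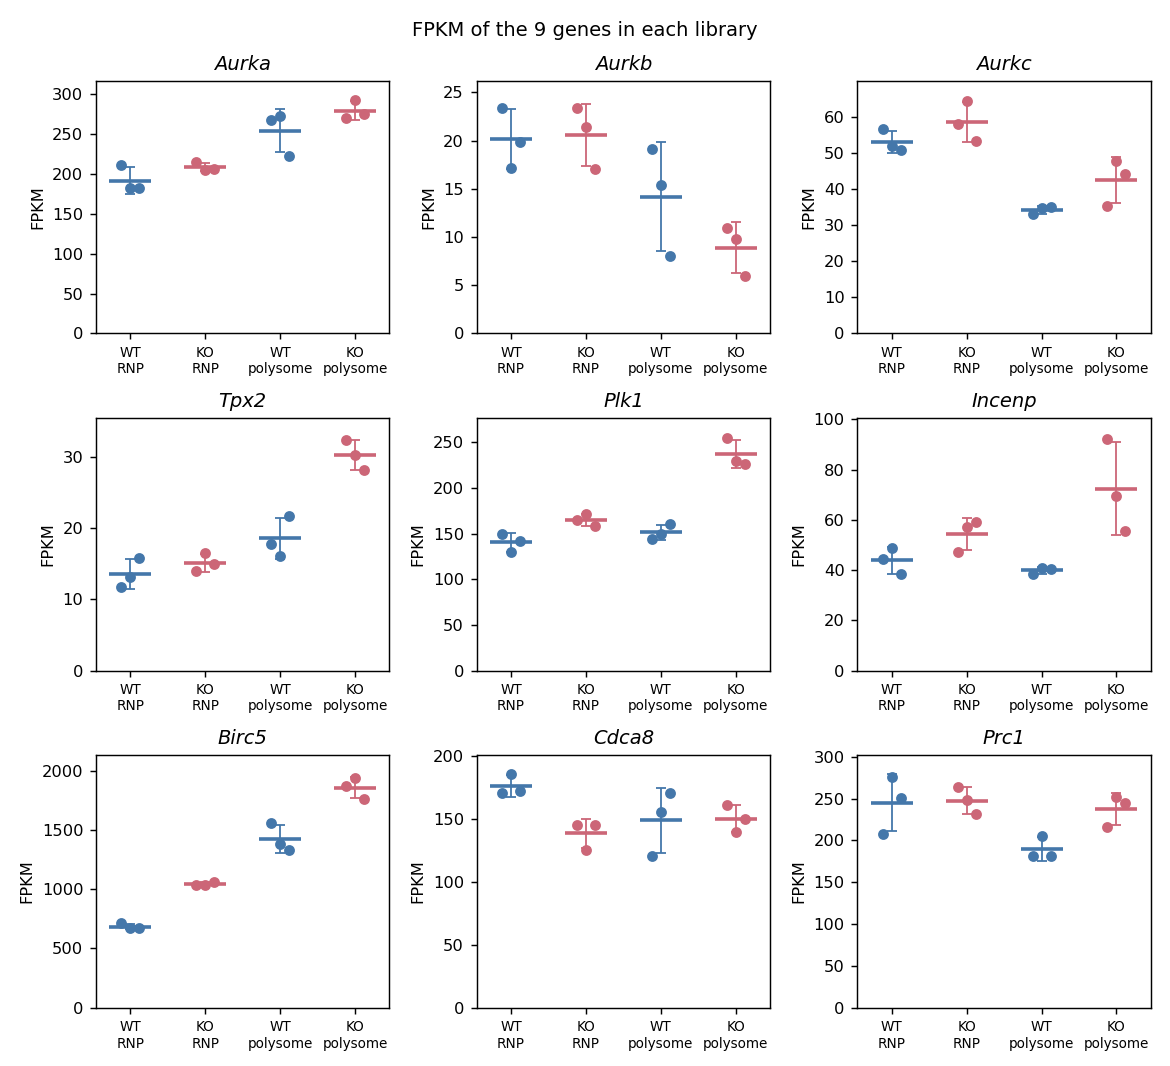
FPKM (y axes, linear from 0, a scale for each gene) of the 9 genes in the WT (blue) and KO (red) libraries of the RNP and polysome pools (x axes). Points are libraries, thick lines means and bars SD (n = 3), and the plots show *Plk1*, *Tpx2*, *Incenp* and *Birc5* above every WT library in KO polysomes, and the lowest mean of *Aurkb* there.

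The comparison of KO with WT polysomes asks which of these mRNAs occupied the ribosome-rich fractions differently without LSM14B. *Plk1*, *Incenp* and *Birc5* were higher in KO polysomes, and none of the 9 was lower, at an adjusted p under 0.05 from limma. Over all 9536 genes tested, 5.64% were called higher and 4.73% lower. The KO libraries lay above every WT library for 6 members (*Aurkc*, *Tpx2*, *Plk1*, *Incenp*, *Birc5* and *Prc1*) and below them for none, where 18.2% of all genes lay above and 13.4% below. The median log2 change of the members was 0.32, beside 0.10 over all genes. Changes are differences of log2(FPKM + 1), which understate the change of low genes, and the members share the same libraries.

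*Plk1*, the polo-like kinase, was at 144, 149.9 and 160.3 FPKM in the WT polysome pool and at 255, 230.0 and 226 in KO polysomes. The lowest KO library exceeded the highest WT library, and the mean was 1.57-fold higher. The log2 change was 0.64 (SE, standard error, 0.12, adjusted p = 0.0145 from limma). The call was lost when any of the 3 KO libraries was left out, with adjusted p between 0.0517 and 0.0581, and without the intensity trend (adjusted p = 0.126).

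*Tpx2*, the activator of Aurora A, was at 17.8, 16.1 and 21.7 FPKM in WT and 32.3, 30.2 and 28.1 in KO polysomes. The groups did not overlap, with a mean 1.63-fold higher in the KO, but the log2 change of 0.69 missed the threshold (SE 0.24, adjusted p = 0.106 from limma). For *Aurka* itself the values were 268, 272 and 223 FPKM in WT and 270.5, 293 and 276 in KO. Its groups overlapped, and the log2 change was 0.14 (95% interval -0.14 to 0.42, adjusted p = 0.521 from limma).

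Of the passenger complex, *Incenp*, the scaffold, was at 38.4, 40.8 and 40.5 FPKM in WT and at 92.1, 69.5 and 55.7 in KO polysomes. All KO libraries were higher but spread widely, and replicate 1 was the highest. The log2 change was 0.81 (SE 0.22, adjusted p = 0.0477 from limma), and it passed the threshold in only 2 of 14 alternatives. Without KO replicate 1 it was 0.63 (adjusted p = 0.151 from limma). *Birc5* was at 1560.1, 1379 and 1332 FPKM in WT and at 1869.8, 1938 and 1763 in KO polysomes, without overlap. It differed by 1.30-fold, a log2 change of 0.39 (SE 0.09, adjusted p = 0.0354 from limma), a call that 6 of 14 alternatives kept. It was lost when any KO library or WT replicate 2 or 3 was left out and under 3 other settings, with adjusted p up to 0.311 from limma (without the intensity trend). *Cdca8*, borealin, was at 121, 156 and 171 FPKM in WT and 161, 140.1 and 150.2 in KO. These groups overlapped, and the log2 change of 0.03 (95% interval -0.34 to 0.40) turned negative under 3 of 14 alternatives.

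The kinases of the passenger complex gave values on opposite sides of 0. *Aurkb* was at 19.1, 15.4 and 7.99 FPKM in WT and 10.9, 9.80 and 5.92 in KO polysomes. The groups overlapped through WT replicate 3, and the log2 change was -0.58 (95% interval -1.53 to 0.37, adjusted p = 0.425 from limma). Without that library it was -0.92. *Aurkc* was at 33.1, 34.7 and 35.1 FPKM in WT and 35.4, 47.8 and 44.2 in KO. The lowest KO library was barely above the highest WT library, and the log2 change was 0.29 (95% interval -0.17 to 0.75, adjusted p = 0.409 from limma). *Prc1*, the midzone bundler, was at 181, 206 and 182 FPKM in WT and 217, 252 and 245 in KO. It did not overlap between the groups and missed the threshold at a log2 change of 0.32 (SE 0.13, adjusted p = 0.143 from limma).

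**Figure D2:**
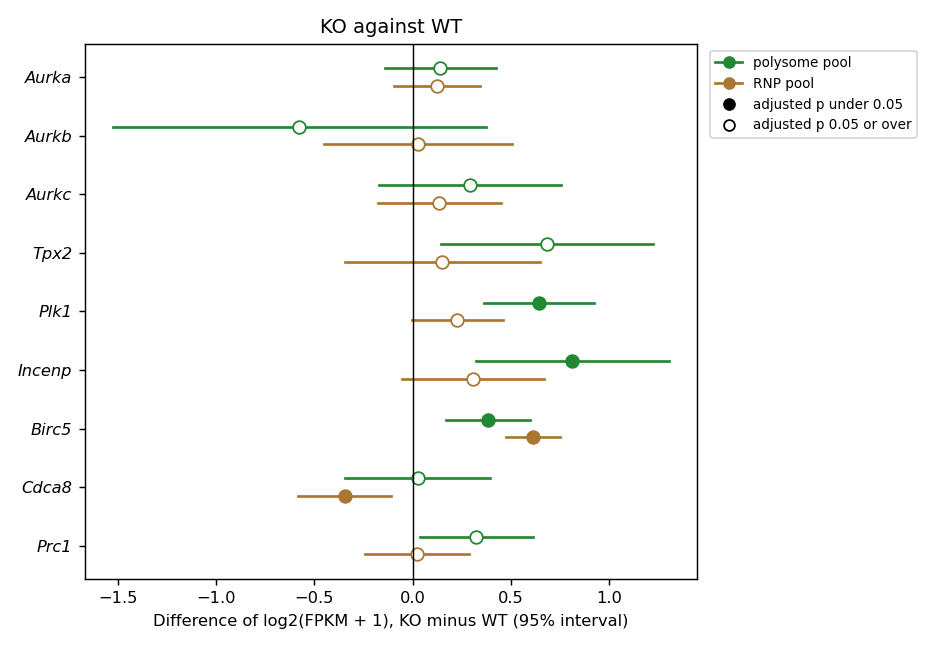
Differences of log2(FPKM + 1) between KO and WT (x axis) for the 9 genes (y axis), in the polysome pool (green) and the RNP pool (brown), with 95% intervals from limma (3 libraries in each group), filled where the adjusted p was under 0.05. *Plk1*, *Incenp* and *Birc5* are filled on the higher side in polysomes, and *Birc5* (higher) and *Cdca8* (lower) in RNP.

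In the RNP pool, *Birc5* was higher and *Cdca8* lower in the KO, the only members called among 9931 genes, of which 10.5% were called higher and 10.2% lower. With 1 of 9 called higher and 1 lower, these counts are near the shares over all genes. The 2 called genes encode subunits of the same complex and differed in opposite directions, but the *Cdca8* call was not stable (below). The values of *Birc5* were 711, 670.5 and 673 FPKM in WT and 1039.9, 1036 and 1065 in KO RNP. The groups lay far apart relative to their spread, and the mean was 1.53-fold higher. Its log2 change of 0.61 (SE 0.06, adjusted p = 0.000267 from limma) was called in 14 of 14 alternatives. *Cdca8* was at 171, 186 and 172 FPKM in WT and at 145, 126 and 146 in KO RNP, again without overlap. Its WT mean was 1.27-fold the KO mean, and the log2 change was -0.35 (SE 0.10, adjusted p = 0.0453 from limma). This call was close to the threshold and was kept by 4 of 14 alternatives. It was lost when any of the 6 libraries was left out and under 4 other settings, with adjusted p up to 0.201 from limma (without the intensity trend).

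The other 7 members were not called in RNP, and the members' median change of 0.14 stood beside 0.05 over all genes. *Plk1* was at 150.1, 129.8 and 142 FPKM in WT and 165, 171 and 158 in KO, higher in every KO library, with a log2 change of 0.23 (95% interval -0.0018 to 0.46, adjusted p = 0.149 from limma). *Incenp* changed by 0.31 (adjusted p = 0.212) and *Tpx2* by 0.15 (adjusted p = 0.673), with overlapping groups. The Aurora kinases changed by 0.13 (*Aurka*), 0.03 (*Aurkb*) and 0.14 (*Aurkc*), and *Prc1* by 0.02, with adjusted p between 0.402 and 0.941 from limma. Members above every WT library numbered 2 and members below numbered 1, beside 20.7% and 18.4% of all genes.

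Whether the genotypes differed more in polysomes than in RNP was tested as the interaction over all 12 libraries. None of the 9 members was called, and only 0.237% of 10949 genes were called in either direction, 26 with limma against 1220 at an unadjusted p under 0.05. Among the members, *Plk1* and *Birc5* were under 0.05 unadjusted. *Plk1* had a polysome-to-RNP change of 0.41 (95% interval 0.09 to 0.73, adjusted p = 0.309 from limma), and *Birc5* one of -0.23 (95% interval -0.45 to -0.0033, adjusted p = 0.441). The estimate was 0.53 for *Tpx2*, 0.51 for *Incenp*, 0.37 for *Cdca8*, 0.30 for *Prc1* and 0.15 for *Aurkc*, each with an interval that included 0. For *Aurkb* it was -0.61 (95% interval -1.59 to 0.38) and for *Aurka* 0.01 (95% interval -0.31 to 0.34). So the higher polysome values of *Plk1*, *Incenp* and *Birc5* were not shown to exceed their RNP differences.

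The comparison of the pools within a genotype, which uses the same libraries as the comparisons above, sets the level of each mRNA in polysomes against that in RNP. In WT only *Birc5* was called, higher in polysomes by 2.08-fold, while 7.97% of 9574 genes were called higher and 6.72% lower. Its log2 difference was 1.05 (SE 0.09, adjusted p = 0.000215 from limma) and was called in 14 of 14 alternatives. *Aurka* was above every RNP library in polysomes, with a difference of 0.40 (adjusted p = 0.0794), and so was *Tpx2*, with 0.42 (adjusted p = 0.373). *Aurkc*, *Cdca8* and *Prc1* lay below every RNP library. Their differences were -0.62 (adjusted p = 0.0575), -0.26 (adjusted p = 0.326) and -0.36 (adjusted p = 0.128 from limma). *Plk1* (0.11), *Incenp* (-0.13) and *Aurkb* (-0.55) overlapped between the pools. The 3 members above and 3 below stood beside 16.7% and 17.9% of all genes.

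In KO, *Birc5*, *Tpx2*, *Plk1* and *Aurka* were higher in polysomes than in RNP and *Aurkb* was lower, while 15.5% of 9851 genes were called higher and 13.8% lower. *Tpx2*, at 14.0, 16.5 and 14.9 FPKM in KO RNP, was 2.00-fold higher in KO polysomes, a log2 difference of 0.96 (SE 0.18, adjusted p = 0.00358 from limma). *Plk1* differed by 0.52 (adjusted p = 0.0037), *Aurka* by 0.42 (adjusted p = 0.00694) and *Birc5* by 0.82 (adjusted p = 3.39e-05 from limma). *Aurkb* was at 23.3, 21.4 and 17.1 FPKM in KO RNP. Every polysome library was below these, and the RNP mean was 2.32-fold higher, a log2 difference of -1.15 (SE 0.27, adjusted p = 0.0112 from limma). Without KO RNP replicate 1 its adjusted p was 0.0518. *Aurkc* lay below every RNP library as in WT, with a difference of -0.46 (adjusted p = 0.0591) that 4 of 14 alternatives called. *Incenp* (0.38), *Cdca8* (0.12) and *Prc1* (-0.06) were not called, with overlapping pools. The 4 members above and 2 below compare with 22.5% and 21.7% of all genes. That *Tpx2*, *Plk1*, *Aurka* and *Aurkb* were called in KO and not in WT does not show that the genotypes differed, since none was called in the interaction. Of the genes with a CPE in the window, *Aurka* lay above and *Aurkc* below every RNP library in polysomes in both genotypes, while *Aurkb* overlapped in WT and lay below in KO.

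**Figure D3:**
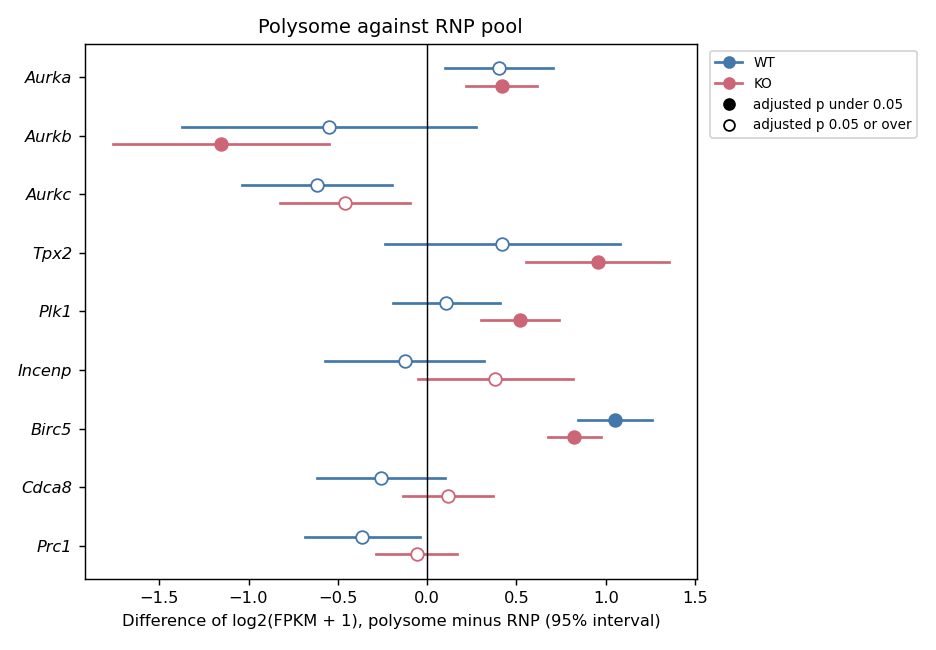
Differences of log2(FPKM + 1) between the polysome and RNP pools (x axis) for the 9 genes (y axis) in WT (blue) and KO (red), with 95% intervals from limma (3 libraries in each group), filled where the adjusted p was under 0.05. *Birc5* is filled on the polysome side in both genotypes, *Tpx2*, *Plk1* and *Aurka* on that side in KO alone, and *Aurkb* on the RNP side in KO.

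Ratios of 2 members within a library do not depend on how the libraries were scaled. The pairs were chosen with the values known, and with 3 libraries against 3 the exact permutation test cannot give a two-sided p below 0.1. A p of 0.1 here only restates that the groups did not overlap, so the test decides nothing about these ratios. *Cdca8* relative to *Birc5*, the chromosome-binding partners, was 0.240, 0.278 and 0.256 in WT RNP and 0.140, 0.121 and 0.137 in KO RNP. All KO libraries were lower, by 0.96 on the log2 scale (exact permutation p = 0.1, adjusted p = 0.171 over 12 tests). This ratio combines the 2 members already called in RNP. In polysomes the same ratio overlapped between genotypes. *Incenp* relative to *Cdca8* was higher in every KO library of both pools, at 0.371 to 0.571 against 0.238 to 0.319 in polysomes and 0.325 to 0.454 against 0.223 to 0.262 in RNP. *Incenp* relative to *Birc5* was higher in every KO polysome library and lower in every KO RNP library. Relative to *Aurka*, *Tpx2* was at 0.102 to 0.120 in KO polysomes against 0.0592 to 0.0971 in WT, and *Plk1* at 0.785 to 0.941 against 0.538 to 0.719. Neither ratio separated the genotypes in RNP. *Aurkb* relative to *Aurkc* was 0.578, 0.444 and 0.228 in WT polysomes and 0.309, 0.205 and 0.134 in KO polysomes, which overlapped. In all, 7 of the 12 comparisons did not overlap, each at the smallest p. The pairs reuse the same genes and libraries, so the 12 are not separate. How often other pairs of genes fail to overlap was not computed, so the count has no background to be read against.

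**Figure D4:**
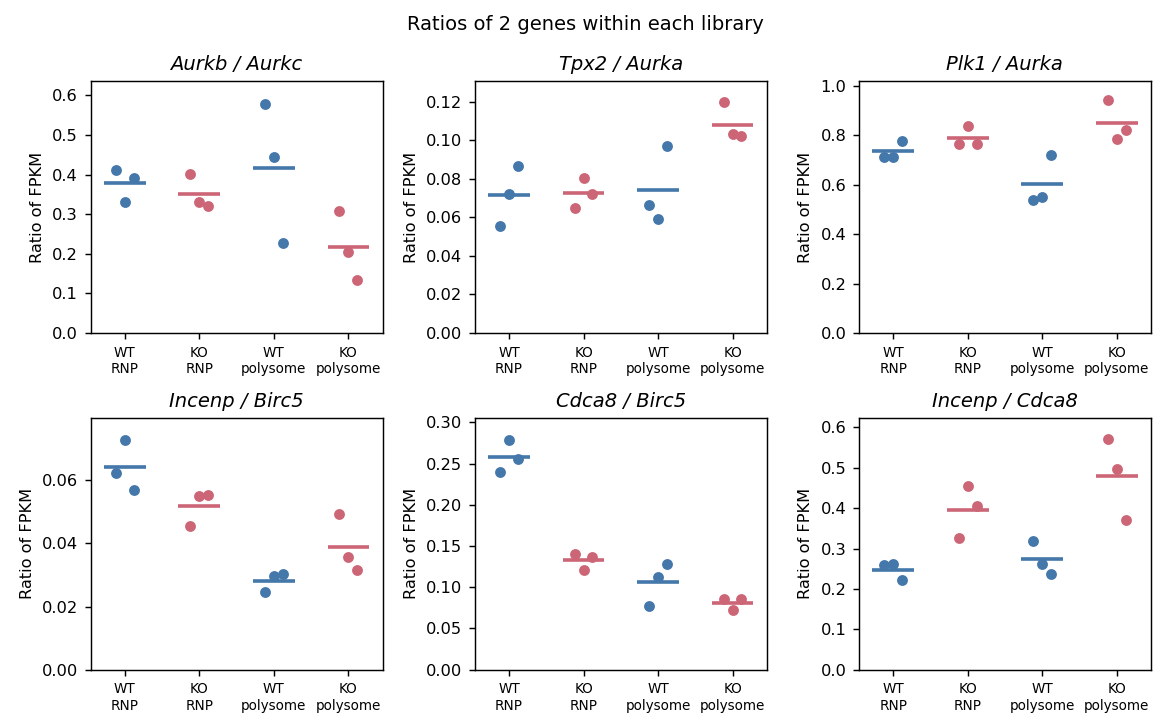
Ratio of the FPKM of 2 genes within each library (y axes, linear from 0) by pool and genotype (x axes), with points for libraries and lines for means (n = 3). *Cdca8* / *Birc5* is lower in every KO than WT library of the RNP pool, and *Incenp* / *Cdca8* is higher in the KO in both pools.

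Other genes of the pathway came from 4 lists of 12 genes. Beside the counts below, 5.64% of all genes were called higher and 4.73% lower in KO polysomes. In KO RNP these shares were 10.5% and 10.2%. Of the Aurora A and spindle assembly partners, 9 were tested in polysomes and 8 in RNP, and none was called between KO and WT. Their median change was 0.66 in polysomes and -0.16 in RNP, beside 0.10 and 0.05 over all genes. Of the passenger complex recruiters and targets, 10 were looked up. Of these 10, 1 was called in polysomes (lower) and 4 in RNP (2 higher and 2 lower), with medians of 0.11 and 0.25. *Sgol2a*, listed as *Sgol2*, passed the filter too, but its change was not looked up and is in none of these numbers. Its means were 22.4 FPKM in WT and 22.5 in KO polysomes, and 23.6 and 20.5 in RNP, with overlapping groups. *Cenpa*, the centromeric histone that Aurora B phosphorylates, was lower in both pools. It was at 35.2, 32.1 and 43.4 FPKM in WT and 12.3, 12.1 and 15.9 in KO polysomes, without overlap, a log2 change of -1.39 (SE 0.25, adjusted p = 0.0126 from limma). In RNP it was at 73.4, 65.8 and 62.5 in WT and 19.1, 11.4 and 13.3 in KO, a change of -2.16 (adjusted p = 0.00022). *Gsg2*, which encodes haspin, the histone kinase that recruits the passenger complex to centromeres, changed by -0.78 in RNP (adjusted p = 0.00434). *Stmn1*, which encodes the microtubule destabilizer stathmin, changed by 0.64 there (adjusted p = 0.00943). *Ppp1ca*, a phosphatase subunit named after its value was seen, changed by 0.59 (adjusted p = 0.048 from limma).

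Of the polo-like kinases and PLK1 regulators, 8 were looked up. Of these 8, 1 was called in polysomes and 2 in RNP, with medians of 0.16 and 0.10. *Cenpu*, listed as *Mlf1ip*, passed the filter too, but its change was not looked up and is in none of these numbers. Its means were 10.9 FPKM in WT and 6.57 in KO polysomes, and 6.09 and 6.47 in RNP, with overlapping groups. *Cdc25b*, a phosphatase that activates CDK1 at meiotic resumption, was at 70.8, 72.5 and 53.0 FPKM in WT and 107, 103 and 128 in KO polysomes. Each KO library was higher, and the log2 change was 0.78 (SE 0.18, adjusted p = 0.0308 from limma). In RNP *Fbxo5*, which encodes EMI1, an inhibitor of the anaphase-promoting complex that PLK1 marks for destruction, changed by 0.93 (adjusted p = 0.0109). *Cdc25a*, another CDK-activating phosphatase, changed by -0.89 (adjusted p = 0.00748 from limma). Of the 12 centralspindlin and midzone partners, all were tested, none was called in polysomes and 1 was called in RNP, with medians of 0.36 and 0.18. This was *Rhoa*, the small GTPase of the contractile ring, with a change of 0.62 (adjusted p = 0.00873 from limma). No gene looked up from these lists was called in the polysome-to-RNP ratio, where *Sgol2a* and *Cenpu* were again left out.

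Between the pools, called genes of the lists lay on both sides, and those named here were chosen after their values were seen. In WT polysomes, *Cltc* and *Tacc3* of the Aurora A list, *Cdc25b* and *Fzr1* of the PLK1 list, and *Racgap1* and *Kif14* of the midzone list were higher than in RNP. *Racgap1*, a subunit of centralspindlin, had a log2 difference of 1.95 (adjusted p = 0.00332 from limma). *Cenpa* and *Gsg2* of the passenger list, *Cdc25a* and *Wee2* of the PLK1 list and *Cep55* of the midzone list were lower. In the Aurora A, passenger, PLK1 and midzone lists, 9, 10, 8 and 12 genes were looked up. The called genes were 6 higher and 5 lower, where 7.97% and 6.72% of all genes were called. In KO, 6 of 9 tested Aurora A partners were higher in polysomes and none lower, where 15.5% and 13.8% of all genes were called, and their median difference was 1.50 beside -0.04 over all genes. Of the midzone list 5 of 12 were higher and 2 lower, of the PLK1 list 2 of 8 were higher and 3 lower, and of the passenger list 1 of 10 was higher and 1 lower. *Sgol2a* and *Cenpu* are not in the counts of either genotype, and the values of both overlapped between the pools in WT and in KO.

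For each member, the most alike gene was the one of 6679 compared (mean of at least 5 FPKM) with the smallest root-mean-square difference of log2(FPKM + 1) over the 12 libraries, after centring each gene on its mean. This was *Cep164* for *Aurka* (0.106), *Fkbp8* for *Aurkb* (0.226), *Stau1* for *Aurkc* (0.116), *Sf3b3* for *Tpx2* (0.141) and *Fkbp5* for *Plk1* (0.104). For the others it was *Uba1* for *Incenp* (0.166), *Oog4* for *Birc5* (0.124), *Etl4* for *Cdca8* (0.14) and *Zfp68* for *Prc1* (0.107). Among the members, *Incenp* and *Plk1* were nearest to each other, with a difference of 0.205. Of the 6679 genes, 4 were closer to *Incenp* than *Plk1* was, while *Incenp* held only rank 40 among the genes nearest to *Plk1*. *Aurkb* stood farthest from the rest, with its nearest member, *Aurkc*, at 0.498 and rank 678. These differences are not scaled to a gene's own variation. On the same measure, the members' variation about their own means was largest for *Aurkb* (0.573) and smallest for *Cdca8* (0.18).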

How the data were processed

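Reads were trimmed and aligned to mm10 by the authors, who deposited FPKM for each gene symbol in each library, and the submitters' processing notes name TopHat2 2.0.13, Cufflinks 2.2.1, Cuffnorm and Cuffdiff. Libraries were made from Smart-seq2 cDNA and read as 150-base pairs. The library kit named in the labels differs from that in the study's design text. The annotation release was not given in the sources used here, and the top sucrose concentration is 50% in the labels and 55% in the study's design text and methods. The deposited log2 changes, p-values and q-values of the authors' own comparisons were not used. The values used hold no counts, and the depth estimate rests on the most frequent low value as 1 fragment, with the transcript length less 200 bases.

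Groups came from the labels. Linear models with an intensity trend were fitted to log2(FPKM + 1) with limma 3.58.1 (R 4.3.3), on all genes at 1 FPKM or more in 3 or more of the libraries compared, with Benjamini-Hochberg adjustment over all of them at 0.05. The fits were tested on simulated data, with noise drawn separately for each gene and changes larger than any of the members' between KO and WT. Recovery of changes as small as theirs was not tested. Python 3.11.15, pandas 2.3.3, numpy 2.4.6 and matplotlib 3.10.9 were also used. Alternatives were pseudocounts of 0.1 and 5, no filter, a filter at 5 FPKM, 2 rescalings, no intensity trend, the replicate number as a block and each library left out in turn. Named are the 9 members, *Lsm14b*, at most the 3 called genes of each pathway list with the largest change between KO and WT, and the most alike gene of each member. *Mir300*, the granulosa markers, *Ppp1ca* and the genes of the lists named between the pools fall outside this rule and were named after their values were seen. *Sgol2a* and *Cenpu* also fall outside it, and are named because their changes were not looked up. The members and lists were chosen with earlier results of these data known. The total mRNA libraries of the study were not analysed here.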

Additional observations from a re-analysis of the deposited data

How the results depend on the processing

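Of 693 recomputed member changes, 632 kept direction and side of the threshold, 37 lost the call, 8 gained it and 16 changed sign, while *Birc5* stayed called in RNP and between the pools of both genotypes. Changes not called at first had no call to lose. In polysomes the call held in 10 of 14 alternatives for *Plk1*, 2 for *Incenp* and 6 for *Birc5*, and in RNP in 4 for *Cdca8*. Calls between the pools held in 13 or 14 of 14. With no filter on low values, 1 member was called in polysomes, 1 in RNP and 2 between the WT pools. Without an intensity trend these calls numbered 0 in polysomes, 1 in RNP and 3 between the KO pools. Rescaling the libraries to the same median left 1 call in RNP, and a filter at 5 FPKM or quantile normalization gave 2 between the WT pools. With a library left out, calls numbered 0 to 2 in polysomes, 1 in RNP, 1 to 2 between the WT pools and 4 to 6 between the KO pools.

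The values gave no sign that the replicate numbers pair the libraries. Deviations correlated at -0.0207 to 0.0255 between same-numbered libraries and at -0.0292 to 0.044 between others, across 10949 genes. This cannot tell whether same-numbered libraries shared a lysate, since separate noise in each library would hide it. With the replicate block 1 member was called in polysomes and 1 in RNP, and the counts over all genes were 672 and 1799, 11 for the ratio and 0 for it when pools were paired within a genotype.

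The sign changes fell on differences near 0. Quantile normalization gave -0.027 for *Cdca8* in polysomes, -0.11 for *Prc1* in RNP, -0.032 for *Plk1* between the WT pools and -0.023 for *Cdca8* between the KO pools, and rescaling to the same median gave -0.028 for the *Aurka* ratio. With a library left out, the ranges were -0.12 to 0.13 for *Cdca8* in polysomes, -0.073 to 0.15 for *Aurkb* and -0.092 to 0.11 for *Prc1* in RNP, -0.077 to 0.066 for the *Aurka* ratio and -0.11 to 0.0066 for *Prc1* between the KO pools. The cause was not tested.

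Depth limits *Aurkb* most, at an estimated 50 to 122 fragments in a KO polysome library.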
